A study of Mus musculus with 4 samples.

Results

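The open chromatin of wild-type mouse fetal liver at embryonic day 14.5 was described as 32037 regions that carried an ATAC-seq peak in both of 2 wild-type (WT) libraries. ATAC-seq uses a transposase that inserts adapters into accessible DNA, so that stretches cut and sequenced more often than their surroundings are read as open. Peaks on chromosomes 1 to 19 and X were merged wherever they shared at least 1 bp, and a merged region was kept when each library had a peak in it. These were 64.9% of the 49346 regions of the 2 WT libraries and 58.0% of the 55274 regions obtained when all 4 libraries of the series were merged in the same way. Positions are those of the deposited files, whose build the labels do not state. They were named with mm10 RefSeq genes, of whose starts 58.6% had a region within 1 kb, against 4.52% to 5.94% after shifting the starts by 5, 20 or 50 kb. The other 2 libraries of the series came from Hemgn KO livers and were not compared here. Both libraries described carry the genotype label WT, come from fetal livers of embryonic day 14.5, and were prepared from liver cells by the Omni-ATAC procedure, per the labels' protocols. No treatment, cell sort or strain is named for them, the livers were not separated into cell types, and the labels do not say whether the libraries came from separate embryos or litters. The spread between them may therefore be technical, and with 1 group there was no test to make: both libraries' values are given throughout. The peak names inside the files carry other replicate numbers than the sample labels, and replicate 1 and 2 here follow the labels.

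At this age red cells are made chiefly in the fetal liver, and most of its cells are erythroid precursors at successive stages, beside blood stem cells, other blood lineages, hepatoblasts, endothelium and stellate cells. Erythroid transcription factors such as GATA1, TAL1 and KLF1 open and use enhancers and promoters of the globin, heme synthesis and membrane skeleton genes. Promoters of genes used in every cell are also open, most of them in stretches rich in CpG. In a mixed liver, a peak shows that a region was open in enough cells to be seen, and fewer cells of a type and less open DNA per cell cannot be told apart.

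The RefSeq promoter windows (assembly GRCm38.p6, 250 bases before to 50 after a gene start) make this concrete. One window is given for each of 6 gene groups, namely the one in the highest-ranked open region of its group, because these groups carry the contrast described further on. They are written 5′ to 3′ on the gene's strand, with capitals at matches to the motif words searched, which are spelled out with the promoter results.

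Hbb-bs: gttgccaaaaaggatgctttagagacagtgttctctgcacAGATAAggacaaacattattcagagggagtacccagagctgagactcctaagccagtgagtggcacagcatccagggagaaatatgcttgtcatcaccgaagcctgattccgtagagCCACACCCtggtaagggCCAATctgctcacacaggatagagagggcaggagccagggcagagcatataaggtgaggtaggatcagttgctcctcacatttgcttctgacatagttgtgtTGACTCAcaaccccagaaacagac
Stat5b: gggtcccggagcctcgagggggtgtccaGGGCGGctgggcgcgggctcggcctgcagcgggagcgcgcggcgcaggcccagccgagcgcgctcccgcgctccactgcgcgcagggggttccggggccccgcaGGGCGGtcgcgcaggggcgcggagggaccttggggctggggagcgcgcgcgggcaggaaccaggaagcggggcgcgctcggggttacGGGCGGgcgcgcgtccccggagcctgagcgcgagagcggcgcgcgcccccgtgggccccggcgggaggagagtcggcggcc
Ireb2: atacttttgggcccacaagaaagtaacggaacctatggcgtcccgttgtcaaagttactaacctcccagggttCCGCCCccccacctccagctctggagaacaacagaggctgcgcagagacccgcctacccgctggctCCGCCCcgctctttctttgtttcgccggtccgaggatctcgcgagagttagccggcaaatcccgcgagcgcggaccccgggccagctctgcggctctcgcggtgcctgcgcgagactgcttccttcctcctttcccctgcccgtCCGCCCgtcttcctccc
Xk: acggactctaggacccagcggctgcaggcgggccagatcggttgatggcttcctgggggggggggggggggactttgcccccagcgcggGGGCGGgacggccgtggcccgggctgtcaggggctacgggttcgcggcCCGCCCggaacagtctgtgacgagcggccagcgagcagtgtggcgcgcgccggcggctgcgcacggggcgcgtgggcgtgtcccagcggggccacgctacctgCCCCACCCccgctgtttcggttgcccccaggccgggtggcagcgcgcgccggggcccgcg
Foxa3: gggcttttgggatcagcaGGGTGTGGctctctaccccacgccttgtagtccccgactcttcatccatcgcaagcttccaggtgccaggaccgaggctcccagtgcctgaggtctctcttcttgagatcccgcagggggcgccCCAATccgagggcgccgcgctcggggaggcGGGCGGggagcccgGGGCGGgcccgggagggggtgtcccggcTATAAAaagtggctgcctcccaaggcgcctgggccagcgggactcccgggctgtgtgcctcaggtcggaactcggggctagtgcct
Rpl5: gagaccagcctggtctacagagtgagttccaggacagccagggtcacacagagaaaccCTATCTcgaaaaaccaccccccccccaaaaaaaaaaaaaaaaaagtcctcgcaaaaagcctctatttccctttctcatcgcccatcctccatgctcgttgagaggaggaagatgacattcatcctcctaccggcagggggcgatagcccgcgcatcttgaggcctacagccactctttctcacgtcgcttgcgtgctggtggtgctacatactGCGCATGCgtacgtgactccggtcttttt

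The Hbb-bs window, of the adult beta-globin gene (chr7:103827879-103828178, minus strand), had a GC content of 49.7% and an observed-to-expected CpG ratio of 0.108. With the start as position 0, it held the GATA word AGATAA at position -210, the CACC word CCACACCC at -93 and CCAAT at -76. CACC and CCAAT boxes are long-known parts of beta-globin promoters. An AP-1 or NF-E2 core lay at 26. The Foxa3 window, of a liver forkhead factor (chr7:19023490-19023789, minus strand), held a CACC word on the opposite strand, CCAAT, 2 GC boxes and the TATA word TATAAA at -36, with a CpG ratio of 0.619. The other 4 were richer in CpG. Stat5b, a signalling factor downstream of the erythropoietin receptor (chr11:100850532-100850831, minus strand), and Ireb2, an iron-sensing RNA-binding protein (chr9:54863505-54863804, plus strand), each held 3 GC boxes and had CpG ratios of 1.01 and 0.962. Xk, a red cell membrane protein (chrX:9272534-9272833, plus strand), held 2 GC boxes and a CACC word at a ratio of 0.869, and Rpl5, a ribosomal protein (chr5:107900278-107900577, plus strand), held a GATA word at -192 and the NRF1 word GCGCATGC at 21, at a ratio of 0.736. A match is a stretch of letters in the reference, not a measured binding site.

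The strength of these openings was read from 2 quantities. Fold is the authors' deposited enrichment at the peak summit over the background that the peak caller took for that peak in the same library. The pileup, the number of sequenced fragments or extended reads over the summit, and the background were recovered as exact solutions from the deposited fold and −log10 p, for 100% of the peaks used. Each was turned into a percentile among the peaks of its own library, and a region's rank is the lower of its 2 fold percentiles. The pileup percentile is likewise the lower of 2. Hbb-bs had a fold of 5.98 in WT replicate 1 and 6.06 in WT replicate 2, and ranked at 47.5. Its pileups were 708 and 227, at the 83.1 percentile, over a background 20.7 and 16.0 times the commonest background of each library. Rpl5 had pileups of a like size in replicate 1, 846 and 388, but folds of 20.5 and 19.3 and a rank of 97.4, with backgrounds of 7.13 and 8.37 times the commonest. Ireb2 ranked at 95.1 (folds 19.2 and 17.6), Stat5b at 86.4 (16.8 and 13.8), Xk at 82.1 (15.1 and 12.4) and Foxa3 at 74.1 (12.0 and 10.3). The globin promoter thus stood far below the other 5 by fold, while by pileup percentile the 6 lay between its 83.1 and the 93.3 of Rpl5.

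WT replicate 1 gave 47845 peaks on the chromosomes used and WT replicate 2 gave 34167. The files hold no read totals, so the depth is unknown. The commonest background was 5.67 in replicate 1 and 2.29 in replicate 2, a ratio of 2.48, and the median summit pileup of a peak was 51 and 35. The lowest pileups called were 15 and 9, so the weakest regions rest on few fragments. Levels were therefore set side by side within a library and not compared between the libraries. Of the peaks of replicate 1, 67.4% lay in a region shared with replicate 2, and of those of replicate 2, 95.04% lay in one shared with replicate 1. The share followed the strength of the peak. In the lowest decile of replicate 1 by fold, 20.9% of peaks were shared, in the fifth decile 66.6%, and in the highest decile 99.96%. The lowest decile of replicate 2 was shared at 81.9%, and its 2 highest deciles at 100%. Regions seen in replicate 1 alone numbered 15613, with a median fold percentile of 21.2, a median length of 303 bp and 9.55% of them at a gene boundary. Those seen in replicate 2 alone numbered 1696, with a median percentile of 13.1, a length of 264 bp and 9.43% at a boundary.

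**Figure D1:**
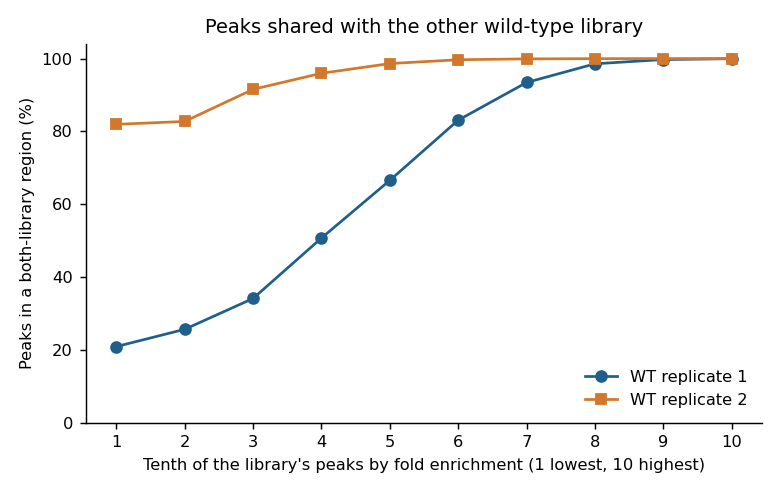
Share of each WT library's peaks that lay in a both-library region (y axis, percent) by decile of that library's peaks ordered by fold enrichment (x axis, 1 lowest). Points are single libraries; replicate 1 climbs from 20.9% to 99.96%, while replicate 2 starts at 81.9%.

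Within the shared regions the libraries ordered the peaks alike. Across the 32037 regions the fold percentiles had a Spearman coefficient of 0.945 and a Pearson coefficient of 0.922, which describe regions of 2 libraries and carry no test. The percentile in replicate 1 was higher by a median of 8.65 points, since its list reaches further down, and 1930 regions differed by over 30 points. The 2 summits lay a median of 35 bp apart, and 87.1% of pairs were within 150 bp. The regions covered 27.8 Mb, with a median length of 802 bp, and 90% of them, leaving out 5% at each end, were between 338 and 1630 bp. A single peak per library made up 31429 regions, and 608 held 3 or more peaks. At the edge of the rule, 59 regions shared under 50 bp between libraries, with a median rank of 8.20, and 22 neighbouring pairs of peaks from different libraries lay within 50 bp of each other without sharing a base.

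Regions at gene boundaries, the 2 ends of a protein-coding gene, had higher median ranks and pileups than the other classes. A boundary lay within 1 kb of the summit in 11777 regions, which were 36.8% of all and 45.7% of the covered length. A further 12396 regions (38.7%) lay inside a gene, 7243 (22.6%) outside genes up to 100 kb from a boundary, and 621 (1.94%) outside genes and beyond 100 kb. In single libraries the boundary share was 27.8% and 35.3% of peaks, 31.5% ± 5.33 (SD, n = 2). Boundary regions had a median rank of 77.3, against 39.1 inside genes, 42.4 outside them up to 100 kb, and 40.1 beyond. Their median folds were 12.53 and 11.1 against 5.998 and 5.36 inside genes, and their median pileups 442 and 171 against 67 and 27. They were also longer, at a median of 1045 bp against 672.5 bp. The difference in median rank between boundary regions and the rest was 37.0 points. The same difference taken in each library's own percentiles over these regions had an SD of 6.68 points (n = 2), a spread that may be technical.

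The mix of places shifted with rank. In the lowest decile of regions 15.02% were at a boundary and 57.9% inside a gene. The sixth decile had 27.9% at a boundary, the eighth 56.7%, and the highest 83.6%, with 11.1% inside a gene and 0.343% in the class beyond 100 kb. Length followed the same order only in part, from a median of 486 bp in the lowest decile to 1128 bp in the eighth and 967.5 bp in the highest. Naming a region by its nearest gene stopped at 100 kb, and 30824 regions had a name by that rule. Between 90 and 100 kb there were 223 regions and between 100 and 110 kb there were 154, and the farthest lay 1228 kb from any boundary.

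**Figure D2:**
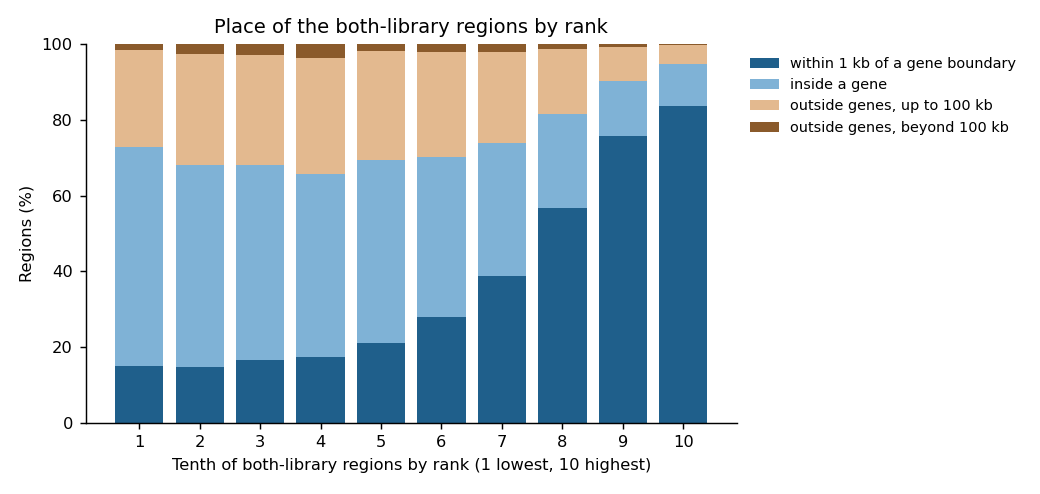
Place of the both-library regions (stacked bars, percent of regions) by decile of rank (x axis, 1 lowest). The boundary class grows from 15.02% in the lowest decile to 83.6% in the highest, and the class inside genes falls from 57.9% to 11.1%.

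The openings at boundaries lay mostly at starts. For 17274 of 21631 protein-coding genes (79.9%) a RefSeq promoter window gave the strand. Among the 13367 of them longer than 5 kb, 62.9% had a region within 1 kb of the start and 6.83% within 1 kb of the end. Near starts of known strand there were 10140 regions, and their summits lay at a median of 46 bp downstream of the start in replicate 1 and 45 bp in replicate 2. The quartiles of the position were -31 and 132 bp, and 32.2% of summits in replicate 1 and 31.8% in replicate 2 were upstream. In both libraries the median summit thus lay just downstream of the start. Read extension and Tn5 shifts, which the labels do not state, could move this position.

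**Figure D3:**
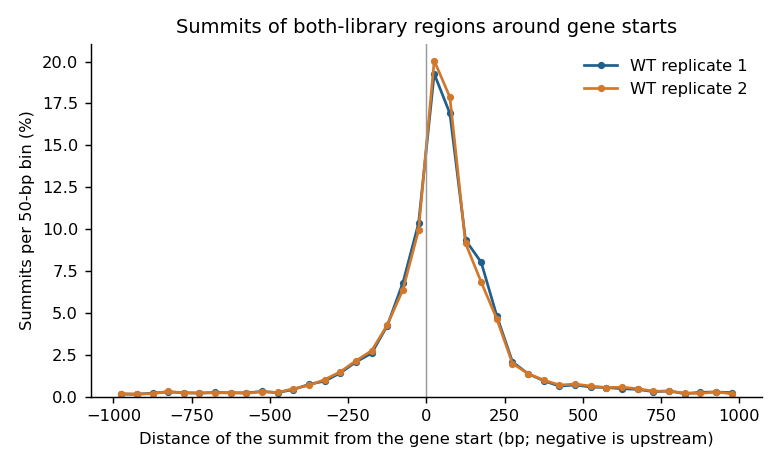
Summits of both-library regions around gene starts of known strand, as percent of summits per 50-bp bin (y axis) against distance from the start (x axis, bp, negative upstream); lines are single libraries. Both curves peak just downstream of the start, with medians of 46 and 45 bp.

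The 25 highest-ranked regions were not mainly promoters. Their ranks ran from 99.9 to 100, and 10 lay at a boundary, 8 inside a gene, 3 outside up to 100 kb and 4 beyond, whereas 86.1% of the next 975 regions were at a boundary. They were narrow, with a median of 509 bp against 900 bp for the next 975, and the 15 of them away from boundaries had a median of 385 bp. The first, chr17:70963656-70963895, was 240 bp long, 10.2 kb from Myl12b, a myosin regulatory light chain gene, and overlapped the lncRNA gene Gm46595, with folds of 47.5 and 45.1 and pileups of 2487 and 1118. The second lay inside Camk1d, a calcium-dependent kinase gene, 85.9 kb from its boundary, with folds of 46.5 and 44.3. The third, 24.8 kb from the collagen gene Col19a1, overlapped the pseudogene Gm10222 and had folds of 42.4 and 42.3. Others away from boundaries lay inside Chl1, Filip1l, Jarid2 and Zc3h7a, inside Gphn at 134 kb from a boundary, 8.41 kb from Rimbp3, and at 96.9 kb from the boundary of Gm29667. Beyond the naming limit were regions whose nearest genes were Mc2r (263 kb), Samd9l (171 kb), Arhgef26 (180 kb) and Pex2 (282 kb). Of the 25 regions, 5 overlapped an annotated lncRNA gene or pseudogene, among them those at Myl12b, Col19a1, Mc2r and Rmi2. Sites whose sequence is repeated elsewhere in the genome were not removed here, and whether any of the 25 is one was not tested. A high rank or pileup, here or below, may therefore not mean the most open chromatin.

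The boundary regions among the 25 were those of Lars2, N6amt1, 2310009B15Rik, Wdr41, Pex7, Rmi2, Fnta, Lsm6, 9130401M01Rik and Nupr1l. Which end of its gene each lay at is not given here. Lars2 encodes the mitochondrial leucyl-tRNA synthetase, and its region (chr9:123461798-123462187) had folds of 38.8 and 38.2 and pileups of 4543 and 2406, far above the other 9, whose pileups were between 618 and 1543 in replicate 1. Pex7 (folds 31.6 and 28.6) encodes the receptor for a class of peroxisomal proteins, Fnta (29.1 and 27.6) a subunit of protein farnesyltransferase, and Lsm6 (29.4 and 27.5) a subunit of the ring that binds U6 RNA. N6amt1 (33.2 and 31.3) encodes a methyltransferase and Rmi2 (29.4 and 28.4) a subunit of the BLM helicase complex. None of the 25 was named for a gene of the erythroid groups described below. Outside genes, further high regions were 8.56 kb from Btbd16 (folds 28.0 and 26.9), 38.2 kb from Csf2ra (27.6 and 31.1) and 61.1 kb from Axin2 (26.8 and 25.2), the last with pileups of 4139 and 1947.

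Ordering by pileup instead of fold gave a different top. Of the 25 highest by fold, 6 were among the 25 highest by pileup, and of the 1000 highest by fold, 157 were among the 1000 highest by pileup, although 84.9% and 84.5% of these sets lay at a boundary. The 2 regions of highest pileup lay on chromosome 17 over the pseudogene Rn18s-rs5, named for 18S ribosomal RNA (chr17:39843128-39846778 and, with the lncRNA gene AY036118, chr17:39847493-39848720). The first had pileups of 12158 and 6129 but folds of only 2.63 and 2.41, a rank of 1.14 and a background 816 and 1112 times the commonest. Among boundary regions Lars2 had the highest pileup, and others of high pileup were those of Sltm (2566 and 1073), Get4 (1856 and 789) and Ctcf (1863 and 761), the gene of the insulator-binding protein CTCF.

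In the erythroid groups the median rank by fold lay below the percentile by pileup. Gene groups were compared by how many members had a both-library region within 1 kb of a boundary, against 57.3% of all 21631 protein-coding genes (12405), whose best regions had a median rank of 79.7 and a median pileup percentile of 81.3. Such regions were found at 7 of 10 globin genes, 24 of 29 erythroid regulators, 20 of 24 genes of heme synthesis and iron handling, and 22 of 24 red cell membrane genes. Their median ranks were 21.5, 47.7, 64.7 and 53.8, all below that of all genes. Their median pileup percentiles were 78.5, 84.9, 92.2 and 79.2, with median pileups of 478 and 171, 609 and 251, 916.5 and 363.5, and 482 and 178.5. The background under these regions was 19.3 and 15.7, 17.7 and 18.8, 16.9 and 17.8, and 11.9 and 11.5 times the commonest of each library, against 5.78 and 5.94 for all genes with a boundary region. By its formula the fold divides the pileup by this background, and what raised the background was not tested. The same gap was not limited to erythroid genes. The 84 genes with a boundary region and the symbol prefix H, shared by histone and MHC genes, had a median rank of 48.9 and pileup percentile of 89.4 over backgrounds of 22.4 and 22.3, and housekeeping genes had 74.3 and 91.7. A boundary region can lie at either end of a gene, and these medians include such regions. Some members whose region was not the one at a known start are named below, but not all. Ldb1, for example, ranked at 9.43 by its boundary region and at 73.5 at a known start, and Bcl11a at 21.8 and 1.13.

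**Figure D4:**
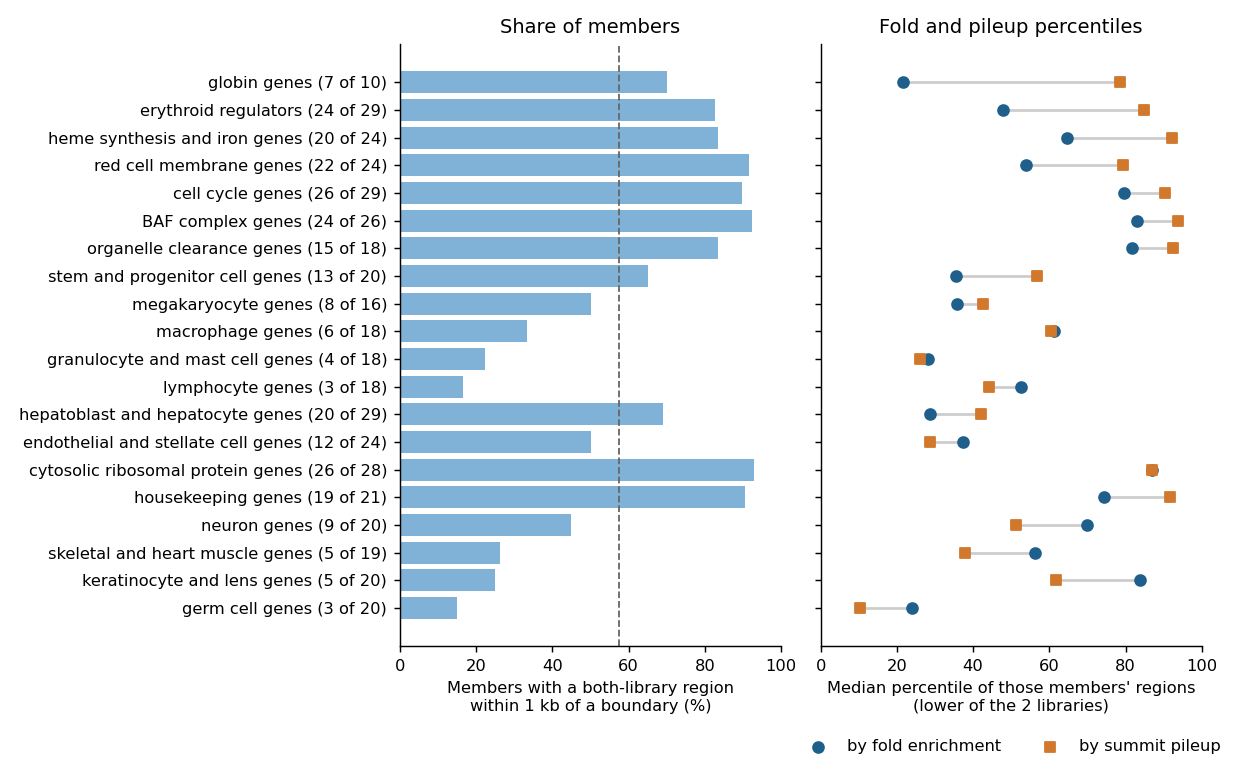
Left, share of each group's members with a both-library region within 1 kb of a gene boundary (bars, percent, counts in the labels; dashed line, all protein-coding genes at 57.3%); right, median percentile of those regions by fold (circles) and by summit pileup (squares). The globin genes have the widest gap, 21.5 by fold against 78.5 by pileup, and the cytosolic ribosomal protein genes almost none, 86.9 against 87.0.

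At the globin loci the openings stood close together. Globin genes encode the chains of hemoglobin, with Hba and Hbb genes for the alpha and beta chains, Hba-x, Hbb-y and Hbb-bh1 for the early embryonic ones. The near-identical copies Hba-a1 and Hba-a2, and Hbb-bs and Hbb-bt, may share reads, and the labels do not say how such reads were placed, so their values are uncertain between the copies. In the beta-globin locus 11 regions were named for its genes. Those at Hbb-bs and Hbb-bt reached pileups of 708 and 227, and 638 and 182. Upstream of Hbb-y, on the side where the locus control region lies, there were 3 regions, at -6.13, -7.91 and -12.7 kb from its start (chr7:103858941-103859676, chr7:103860774-103861781 and chr7:103865569-103866370). Their pileups were 528 and 170, 626 and 207, and 595 and 160, their folds 6.77 and 5.98, 5.97 and 5.74, and 5.83 and 4.61. These 3 stood close to the adult promoters in pileup, at percentiles of 77.5 to 81.5 against 79.5 for Hbb-bt and 83.1 for Hbb-bs. The embryonic end differed: no region lay within 1 kb of Hbb-y or Hbb-bh1, and the region at Hbb-bh2 had pileups of 59 and 21. A region 8.27 kb downstream of the Hbb-y start was named for Hbb-bh1, its nearest gene. It had pileups of 150 and 41 over a background of 2.66 and 1.94 times the commonest. By fold this region ranked highest of the 11, at 60.8. The loci were chosen for this closer look after their values were seen, apart from the alpha-globin and Zfpm1 groups.

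The alpha-globin locus had 11 regions named for Hba-a1, Hba-a2 and Nprl3, the neighbouring gene that holds the known alpha-globin enhancers in its introns. Inside Nprl3 lay 3 regions, at -25.5, -20.3 and -11.3 kb from the Hba-x start, with pileups of 781 and 222, 714 and 208, and 471 and 153. The region at the Nprl3 boundary had the highest, 1074 and 425 (folds 8.03 and 8.16). The highest-ranked boundary region of Hba-a1 had pileups of 676 and 206 with folds of 4.26 and 3.72, and that of Hba-a2 478 and 162 with 4.33 and 4.40. Neither lay within 1 kb of the known start. The region at the Hba-a1 start was 214 bp long and had pileups of 334 and 137 and a rank of 1.48, and no region lay at that of Hba-a2. The minor genes Hbq1a and Hbq1b, whose regions are not among the 11, had boundary regions ranked at 0.738 and 5.83, and Hba-x had none. The pileup percentiles at Hbq1a and Hbq1b were 66.8 and 78.5. Over the 11 regions, ranks ran from 0.881 to 63.5 with a median of 14.9, while pileup percentiles ran from 69.5 to 95.1. Median backgrounds were 21.1 and 17.3 times the commonest.

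**Figure D5:**
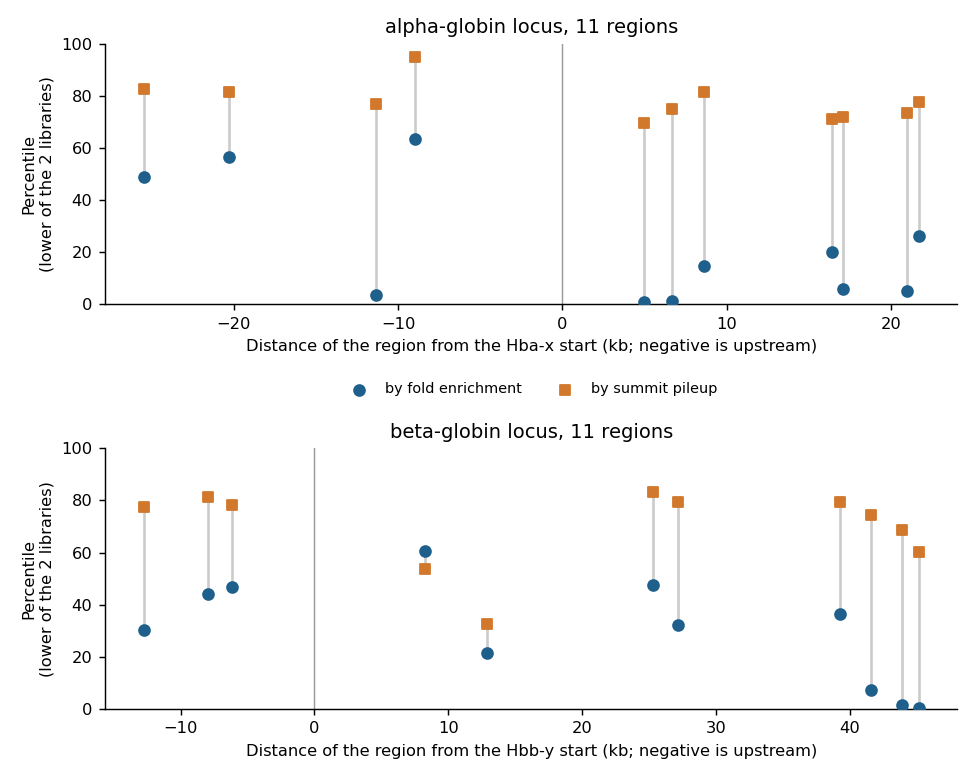
Percentile of each both-library region by fold (circles) and by summit pileup (squares), the lower of the 2 libraries, against its distance from the Hba-x start (top) and the Hbb-y start (bottom), in kb with negative values upstream. The alpha-globin regions shown are the 11 named for Hba-a1, Hba-a2 and Nprl3, without those of Hbq1a and Hbq1b. The 11 lie at 69.5 or higher by pileup and at 63.5 or lower by fold.

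Among erythroid regulators the highest-ranked boundary regions were those of Tfdp2, a partner of E2F factors (rank 90.8, pileups 1070 and 434, and 64.8 at a known start), Bach1, the heme-sensing repressor (85.8, 1568 and 594), and Mafk, a partner of NF-E2 (75.7, 949 and 492). Kit, Jak2 and Myb ranked at 65.5, 63.4 and 57.8. The genes that follow were named after their values were seen, and their boundary regions ranked at 51.7 or lower by fold. Klf1 ranked at 7.05 with pileups of 451 and 178, and a second region inside it, 1.32 kb after the start, had the larger pileups of 1116 and 433 and a rank of 59.5. Gfi1b ranked at 3.30 (169 and 59), Nfe2 at 31.2 (555 and 211), Epor, the erythropoietin receptor gene, at 45.7 (610 and 210) and Tal1 at 51.7 (890 and 400). The 5 members with no boundary region were Gata1, Ikzf1, Foxo3, Stat5a and Stat5b. For Gata1, Ikzf1, Stat5a and Stat5b an annotated start inside the gene's outer limits had a region within 1 kb. At the Gata1 start the region (chrX:7967513-7969035) had folds of 4.84 and 5.31 and pileups of 277 and 122, and another at -3.56 kb had 279 and 108. Counting such starts, 61.8% of all genes had a region, and 28 of 29 erythroid regulators, 23 of 24 heme and iron genes and 23 of 24 membrane genes.

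Hemgn, which encodes hemogen, an erythroid nuclear protein and the gene removed in the other genotype of the series, had 5 regions named for it. The one at its start (chr4:46403699-46404905) had folds of 3.96 and 4.55 and pileups of 265 and 118, and ranked at 27.9. Regions at -2.99 and -6.67 kb had larger pileups, 477 and 128, and 381 and 127. One inside the gene, 8.26 kb from the start, ranked highest of the 5 by fold at 49.2 with pileups of 259 and 84. The farthest, at -13.5 kb, had 75 and 20. The start of Hemgn thus was not the highest of its regions by fold or by pileup in either library.

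In heme synthesis and iron handling, high-ranked members were Slc25a38, the mitochondrial glycine carrier (rank 86.5, pileups 1341 and 568), and Cpox, coproporphyrinogen oxidase (79.8, 1334 and 554). Alas2, the erythroid first enzyme of the pathway, ranked at 26.3 with 165 and 59, and Slc25a37, the mitochondrial iron importer mitoferrin, at 10.2 with 197 and 71. Fech (66.8) and Tfrc (71.3) lay between, with pileups of 1123 and 1149 in replicate 1. Members with no boundary region were Uros, Slc11a2, Fth1 and Ireb2, and for Uros, Fth1 and Ireb2 an annotated start had one, ranked at 88.7, 78.8 and 95.1.

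The red cell membrane genes, which build the spectrin skeleton and its anchors, were led by Tmod3 (rank 92.7, pileups 886 and 384), Xk (82.1, 822 and 292) and Epb42 (79.6, 741 and 303). Cd47 and Dmtn had no boundary region, and Cd47 had one at an annotated start, ranked at 74.4. Slc4a1, the gene of the anion exchanger band 3, had 5 regions with ranks from 0.00585 to 36.5 but pileup percentiles from 72.0 to 91.9, over median backgrounds of 33.2 and 31.3 times the commonest. This group had 152 regions named for its 24 genes, 6.33 a gene, and the erythroid regulators 171 for 29 genes, 5.90 a gene, against 1.42 over all protein-coding genes. Heme and iron genes had 3.08 a gene, and 22 regions were named for the 10 globin genes. Other groups also stood above 1.42, among them stem and progenitor genes at 2.80, cell cycle genes at 2.48 and housekeeping genes at 2.38. Lymphocyte genes, at 0.944, and granulocyte and mast cell genes, at 0.778, stood below it. These counts were not adjusted for gene length. Of the membrane group's regions 55.9% were inside genes, and their median pileup percentile was 62.0 at a median rank of 20.4.

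Genes of other blood lineages had boundary regions of lower pileup than the erythroid groups, though not always of lower rank. Boundary regions were found at 13 of 20 stem and progenitor genes, 8 of 16 megakaryocyte genes, 6 of 18 macrophage genes, 4 of 18 granulocyte and mast cell genes and 3 of 18 lymphocyte genes. Their median ranks were 35.4, 35.8, 61.2, 28.1 and 52.6, and their median pileups in replicate 1 were 119, 92.5, 132, 49 and 107. The first 3 stem and progenitor members were Hlf (rank 68.7, pileups 145 and 55), Etv6 (66.9, 306 and 124) and Spi1, the gene of PU.1 (65.1, 109 and 46), and Mecom, Hoxa9, Cd34, Procr, Ly6a and Slamf1 were among those with none at a boundary. Among megakaryocyte genes the platelet receptor genes Gp1ba (185 and 75), Gp9 (343 and 128, not at its known start) and Itgb3 (68 and 22) led, and Pf4, Ppbp and Vwf had none. Macrophage genes were led by Hmox1 (178 and 82), the heme-degrading enzyme, Slc40a1, the iron exporter ferroportin (703 and 307), and Mertk (86 and 42), while the defining genes Adgre1, Csf1r, Cd68 and C1qa had no boundary region. Granulocyte genes with a region were Fcnb, Prtn3, S100a8 and Camp, with pileups of at most 99 and 43, those of Fcnb and Prtn3 not at the known starts, and lymphocyte genes Ebf1 (107 and 29), Tcf7 (153 and 30) and Cd4 (63 and 23). Cd79a and Cd3e had none.

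Genes of the liver's own cells had boundary regions of low pileup. Of 29 hepatoblast and hepatocyte genes, 20 had a boundary region, at a median rank of 28.8, a median pileup percentile of 42.0 and median pileups of 60 and 27. Foxa3 led (708 and 281), followed by Apob (51 and 27) and Trf, the transferrin gene (162 and 49). Alb, the albumin gene, had 45 and 18 at a boundary other than its known start, and Afp, the alpha-fetoprotein gene, had none at a boundary. Hnf4a, a regulator of the hepatocyte lineage, had 26 and 12 at a boundary (rank 18.6), and a region ranked at 27.6 at a known start. Of 24 endothelial and stellate cell genes 12 had one, at median pileups of 50.5 and 20, led by Col1a1 (118 and 48), Reln (835 and 327) and Kdr, a receptor for VEGF (64 and 25), with none at Pecam1, Cdh5 or Lyve1. Median pileups were 521 and 204 over all genes with a boundary region, above those of the globin and membrane genes and below those of the erythroid regulators and the heme and iron genes. The hepatocyte medians of 60 and 27 were below the 81 and 37 of the neuron genes described next.

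Tissues that the liver does not hold gave a scale for these counts. Boundary regions were found at 9 of 20 neuron genes, 5 of 19 skeletal and heart muscle genes, 5 of 20 keratinocyte and lens genes and 3 of 20 germ cell genes. The share over all protein-coding genes was 57.3%. Counting annotated starts as well, the numbers were 10, 5, 5 and 4. The start regions so added were those of Gad2, a neuron gene (rank 8.20), and Zpbp, a germ cell gene (99.1). Several of the boundary regions ranked high by fold. Elavl4, Map2 and Syp, of neurons, ranked at 88.2, 85.9 and 84.3 with pileups of 133 and 49, 116 and 45, and 191 and 60. Dazl, a germ cell gene, ranked at 97.5 with 362 and 148, and the lens genes Mip and Bfsp1 at 93.7 and 83.8 with 1070 and 474, and 1102 and 478. The other keratinocyte members with a region were Krt10, Lor and Krt1, and Ckm (161 and 61), Actn2 and Tnni1 led the muscle genes. The regions of Mip, Krt10, Lor, Ckm and Tnni1 were not at a known start of these genes, where none was found, and the Bfsp1 start ranked at 68.8. Median backgrounds in the neuron, muscle and germ cell groups were at most 1.16 times the commonest.

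The ribosomal protein, housekeeping, cell cycle, BAF and organelle clearance groups had a boundary region at most members. Cytosolic ribosomal protein genes had a boundary region in 26 of 28, with a median rank of 86.9, and 19 of the 28 ranked above 75. Rpl5 (rank 97.4), Rpl4 (95.3, and 80.7 at a known start) and Rps6 (93.5) led, and Rpl7 and Rps2 had no boundary region, Rps2 having one at an annotated start. Housekeeping genes had one in 19 of 21, led by Sdha (99.3, pileups 997 and 398), Rab7 (98.9) and Psmb4 (98.7), with none at Actb and Ywhaz. Cell cycle genes had one in 26 of 29, led by Ccnb2 (95.4), Aurka (93.1) and Mcm3 (91.0), and Ccnd1, Ccne2 and Cdkn1a had none. The boundary regions of the D-type cyclin genes Ccnd2 and Ccnd3, and of Cdk6, ranked at 10.8, 1.58 and 5.61, whereas annotated starts of Ccnd3 and Cdk6 had regions ranked at 54.1 and 70.3. Genes of the BAF complex, the remodeller whose ATPase BRG1 the series title names, had one in 24 of 26, led by Smarcd1 (98.8), Smarcb1 (97.7) and Bcl7b (97.4), with Smarca4, the BRG1 gene, at 85.9 (1124 and 458) and none at Arid1b and Ss18, Arid1b having one at an annotated start (57.7). Organelle clearance genes, which remove mitochondria and other parts from maturing red cells, had one in 15 of 18, led by Atg5 (97.1), Becn1 (95.6) and Atg7 (94.6, not at a known start), with none at Xpo7, Alox15 and Fbxo7, Fbxo7 having one at an annotated start (95.8).

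Regions were spread thinly over many genes and thickly over few. At least 1 region was named for 14245 genes, 65.9% of all, and 7169 of these had exactly 1. At least 10 were named for 164 genes, which took 6.34% of the named regions. Zfp217, a zinc finger gene, had the most, 20, of which 13 were outside it. Nol4l and Med13l had 19 each, and Bcor, a transcriptional corepressor gene on X, Ank1, Pip4k2a, Dapk2 and Septin9 had 17 each. Zmiz1 had 16, and Rreb1, Cd24a, Atxn7l1, Zeb2, Mbnl1 and Chst11 had 15. Cd24a differed from the others in its size: it spans 5.10 kb, and 13 of its regions lay outside it, whereas the other genes span between 43.0 and 229 kb. Ank1 encodes ankyrin-1, which ties the spectrin skeleton to band 3, and 15 of its 17 regions were inside the gene, with a median rank of 8.94 and pileups from 60 to 720 in replicate 1 and from 27 to 270 in replicate 2. The highest in replicate 1 was one inside the gene (720 and 261), and its 2 boundary regions had 96 and 44, and 367 and 123. No region of these 15 genes ranked above 91.8.

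Regions were also joined into groups across gaps shorter than a fixed limit, set below the median gap of 16.8 kb. This made 18737 groups, of which 12474 were single regions and 110 held 10 or more. The group of longest covered length, 21.6 kb in 21 regions, was a histone gene cluster (chr13:23497902-23596489). Next were groups around Arid3a and Abca7 (chr10:79874153-80019577, 20 regions), Gnai2 (chr9:107514509-107645841, 22 regions) and Eif5a (chr11:69833796-69949141, 19 regions). The fifth was the alpha-globin domain (chr11:32204864-32307522), with 20 regions over 103 kb, 17.9 kb covered and a median rank of 17.8. The others lay around Cbarp and Stk11, Hook2 and Junb, Zfpm1, Lrrc29 and E2f4, and Ap5s1 and Cdc25b. The Zfpm1 group (chr8:122259317-122350186) had 14 of 19 regions named for Zfpm1, which encodes FOG1, the cofactor of GATA1. Its start had pileups of 1241 and 491 and a rank of 49.8, and 12 regions lay inside the gene. Of the 10 groups, the Zfpm1 and alpha-globin groups had the lowest median ranks, 14.3 and 17.8, the other 8 lying between 32.0 and 62.8.

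Among chromosomes X stood apart. The autosomes together had 1.52 regions a gene, from 1.08 on chromosome 7 to 1.79 on chromosome 12, and X had 0.726, with 701 regions for 966 genes. A boundary region was found at 37.0% of genes on X and 58.3% on autosomes, from 46.6% on chromosome 7 to 66.6% on chromosome 12. The regions on X ranked higher, at a median of 66.7 against 49.6 to 55.9 on the single autosomes, and 47.1% of them were at a boundary, against 31.9% to 40.4%. Gene families, by the letters that open their symbols, ranged widely. Of 1110 olfactory receptor (Olfr) genes 5 had a boundary region, and of 355 vomeronasal receptor (Vmn) genes 2. Cytochrome P450 (Cyp) genes had one in 21 of 99, solute carriers (Slc) in 235 of 375 and zinc finger proteins (Zfp) in 307 of 397.

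Base composition separated promoter windows with a region from those without. Of 21045 RefSeq windows of 300 bases, 12124 overlapped a both-library region. Their median GC content was 62.3% against 48.0% in the other 8921, and their CpG ratio 0.783 against 0.211. The windows were divided into 4 classes at the quartiles of the CpG ratio. In the lowest class 7.22% overlapped a region, in the second 39.7%, in the third 87.8% and in the highest 95.7%. Median ranks in these quartile classes were 39.6, 68.1, 80.8 and 82.9. Windows of the globin genes had a median CpG ratio of 0.188, those of hepatocyte genes 0.338, of erythroid regulators 0.677 and of BAF genes 0.953.

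Motif words were counted on both strands, with overlaps between motifs allowed, and each share stands beside that of all windows. The GC box GGGCGG was in 46.7% of all windows, 15.9% of those without a region and 70.8% of those whose region ranked above 75. The ETS word CCGGAAG was in 11.7% of all windows, 2.66% without a region, 6.15% with a region of rank up to 25 and 24.8% above 75. The NRF1 word GCGCATGC went from 1.01% to 7.32% and the YY1 word AAGATGGCG from 0.135% to 3.94% between windows without a region and those ranked above 75, against 3.54% and 1.84% of all. The TATA word TATAAA went the other way, from 21.8% without a region to 4.85% above 75, with 12.7% of all. GATA words (GATA with A or T before it and A or G after it) were in 25.8% of all windows, 38.9% without a region, 20.8% with one ranked up to 25 and 15.5% above 75. CACC words (CCACACCC and its variants CCCCACCC, CCGCACCC and CCACGCCC) were in 21.5% of all, 13.9% without and 27.1% with a region. GATA and CACC words were in 6 of 9 and 1 of 9 globin windows, and in 9 of 37 and 14 of 37 windows of erythroid regulators. GATA words were in 10 of 20 windows of membrane genes. High shares were not limited to erythroid groups. GATA words were also in 6 of 12 megakaryocyte, 7 of 16 granulocyte and mast cell and 8 of 21 neuron windows, but in 2 of 17 lymphocyte windows. CACC words were in 7 of 16 granulocyte and mast cell and 13 of 32 hepatocyte windows, but in 1 of 16 keratinocyte and lens windows.

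Within windows of like CpG content most of these gaps were smaller. The share with minus the share without a region, averaged within the 4 quartile classes of CpG ratio, was 20.4 points for the GC box against 53.4 over all windows, 8.84 against 15.7 for ETS, and 8.35 against 13.2 for CACC. For GATA it was -6.73 against -22.8, for TATA -8.72 against -15.9, and for NRF1 0.497 against 4.40. In the lowest quartile class, the E-box words (CAGCTG and its variant CAGATG) were in 42.9% of windows with a region and 36.3% without, and the AP-1 core (TGAGTCA on either strand) in 10.8% and 7.56%. In the other 3 classes the AP-1 core was less frequent with a region than without (5.12% against 6.28%, 3.07% against 4.84% and 1.73% against 4.39%), and the E-box words were so in the second class (32.2% against 33.6%) and the highest (17.0% against 18.4%). Shares of the CCAAT box (38.5% of all windows) differed little with rank, from 34.0% at ranks up to 25 to 39.4% above 75. These are descriptions of letters in reference windows and say nothing of which factors were bound.

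MicroRNA genes were looked at because some are blood-specific and stand apart from protein-coding starts. MicroRNAs are short RNAs that guide silencing through a seed, bases 2 to 8. Among 1005 RefSeq hairpins, 147 (14.6%) had a both-library region within 1 kb. The highest-ranked of these regions, at Mir7071, was also the boundary region of the coding gene Heatr3 (rank 98.9). The 3 hairpins of blood cells were chosen with their ranks known and had regions of high pileup and low rank. Their mature forms are shown with the seed in capitals.

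miR-451a: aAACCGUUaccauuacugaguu
miR-144-5p: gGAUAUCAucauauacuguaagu
miR-144-3p: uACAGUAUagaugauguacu
miR-142a-5p: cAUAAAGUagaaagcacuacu
miR-142a-3p: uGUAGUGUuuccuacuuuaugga

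The 5 mature forms have 5 different seeds. Mir144 and Mir451a, a pair made in great amounts in red cell precursors, lie side by side (chr11:78073005-78073070 and chr11:78073170-78073241), and their region (chr11:78073469-78074860) is named for Eral1. It had pileups of 712 and 240, at the 84.2 percentile, but folds of 3.48 and 3.39 and a rank of 9.35, over backgrounds of 35.9 and 30.6 times the commonest. The region at Mir142, a microRNA of all blood cells (chr11:87756254-87757176), had pileups of 368 and 162, folds of 3.424 and 3.596 and a rank of 11.5, with backgrounds of 18.8 and 19.4 times the commonest. Both had the profile of the globin and Slc4a1 regions, a high summit on a raised background.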

How the data were processed

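ATAC-seq peak lists of 2 WT fetal liver libraries (embryonic day 14.5) were used, 1 deposited list per library. Per the submitters' processing notes, MACS2 (2.2.7.1), Bowtie2 (2.3.5), Picard (2.21.4) and SAMtools (1.9) were used, without a stated order, settings or genome build. The columns follow the MACS2 narrowPeak layout: the deposited score is 10 times the −log10 q with decimals dropped, the deposited fold is a ratio of the summit pileup to the local background, both raised by 1, and the deposited −log10 p and −log10 q belong to the summit. Solving fold and −log10 p together gave the whole pileup and the background of each peak (tolerance 0.001 on −log10 p). The labels say nothing of read extension, duplicates or Tn5 shifts, which could move summits and pileups.

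Peaks on chromosomes 1 to 19 and X were merged at 1 shared bp. The strongest peak of each library gave a region's percentile, and the stronger library summit its place relative to 21631 RefSeq protein-coding genes of mm10. Named were the 25 highest-ranked regions, the highest 10 of each place class, the 15 genes with most regions, the 10 largest stitched groups, and up to 3 leading members of 20 gene lists, with members lacking a region where these were 5 or fewer. Other genes and the single loci were named after their values were seen. Some members that this rule names are not reported here. The members and lists were chosen with earlier results of these data known. With 2 libraries of 1 group, values are descriptions with no test, and depth limits apply to counting only. Merging, distances and the pileup solution were checked on simulated data. Python 3.11.15, numpy 2.4.6, pandas 2.3.3, scipy 1.17.1 and matplotlib 3.10.9 were used. Alternatives covered the overlap rule, list thresholds and lengths, the rank measure, the boundary window, chromosomes and single libraries. The 2 KO lists served only to count merged regions of the series.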

Additional observations from a re-analysis of the deposited data

Results flagged for a closer look

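Peaks outside the chromosomes described were present in both WT libraries. On chromosome Y, WT replicate 1 had 13 peaks and WT replicate 2 had 14. On unplaced scaffolds, replicate 1 had 45 peaks and replicate 2 had 31. These numbers are above the 3 that a count of 0 allows. The mitochondrial genome had 3 further peaks in each library, which is not above that limit. None of these peaks was analysed further.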

How the results depend on the processing

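Requiring 50% overlap, a −log10 q of at least 3, lists of equal length, autosomes, region middles or mean percentiles left the number of regions, the boundary share (36.8%), the share of genes with a boundary region (57.3%) and the difference in median rank (37.0) within the spread between libraries or within 1.5 times. With the upper 50% of each list by fold there were 16874 regions, 54.9% at a boundary, 47.8% of genes and 167 list members (271 in the full lists) with one, and a Spearman coefficient of 0.931. With summits within 150 bp these were 52.0% of genes and 0.950. The coefficient was 0.945 with 50% overlap, 0.961 ranked by −log10 q and 0.975 by pileup, the last chosen after seeing the data. A 500-bp window gave 50.7% of genes, and a 2.5-kb window 63.7% of genes and 44.7% of regions at a boundary. Single libraries (leaving out 1 at a time) gave 34167 to 47845 regions, a boundary share of 27.8% to 35.3%, a rank difference of 39.1 to 39.7, 57.9% to 61.4% of genes and 278 to 291 list members, and no coefficient. No paired analysis was possible because only 1 group is described. For these changes the cause was not tested.

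Within quartile classes of CpG ratio, the difference in motif share changed from -22.8 to -6.73 points for GATA, 13.2 to 8.35 for CACC, 53.4 to 20.4 for the GC box, -3.72 to -0.588 for AP-1, 15.7 to 8.84 for ETS, 4.40 to 0.497 for NRF1, 2.96 to 1.82 for YY1, -4.75 to -1.72 for FOXA and -15.9 to -8.72 for TATA. It changed sign for the E-box (-10.7 to 0.995), CCAAT (-1.95 to 1.38) and HNF4 (-0.278 to 0.101). Of 41 values, the ranks of named regions and the distance between summits, 39 were counted as moved when ranked by pileup, and 38 when ranked by −log10 q. No SD between libraries was taken for these values. The unknown depth limits regions near the lowest pileups of 15 and 9.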
